A study of Mus musculus and Acomys cahirinus with 16 samples.

Results

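Transcripts of 49 genes of DNA replication, DNA repair and the DNA damage checkpoint were followed in skin, untreated or treated with DMBA/TPA, of 2 rodents: the African spiny mouse (Acomys cahirinus, a species known for regrowing injured skin) and the laboratory mouse (Mus musculus). The genes were taken by symbol from a list. All 49 were found in the mouse table of 56980 genes and in the spiny mouse table of 19818 genes, and all 49 passed the low-count filter in both species. They fall into 13 genes of origin licensing and the replicative helicase, 10 of DNA synthesis at the fork, 3 of nucleotide supply, 9 of homologous recombination and the Fanconi pathway, 1 of mismatch repair, 5 of nucleotide excision repair, 3 of base excision repair, 1 of direct reversal and 4 kinases of the damage checkpoint.

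Each species gave 4 untreated and 4 treated skin samples, 16 in all, sequenced as polyadenylated RNA from stranded libraries. DMBA, a polycyclic carcinogen, is turned by the cell into metabolites that leave bulky adducts on the genome. The phorbol ester TPA makes the epidermis proliferate. The labels name no strain, age, dose, treatment length or time of sampling, and do not say whether a treated sample is tumour or surrounding skin, whether each sample is a separate animal, or what solvent the untreated skin received. The p-values below therefore measure only the spread between these samples, which may be partly technical. The design text of the series speaks of irradiated fibroblasts, while the title and the sample labels speak of skin and of DMBA/TPA, and the labels were followed.

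Before each division a cell licenses its replication origins by loading the ring of Mcm2 to Mcm7 with Cdc6 and Cdt1, while geminin (Gmnn) holds Cdt1 in check. Cdc45 and the GINS complex then turn the ring into an active helicase, primase and DNA polymerase alpha start each new strand, and the polymerases delta and epsilon extend it on the sliding clamp Pcna. Many of these genes are transcribed together at the start of S phase under the E2F factors. In tissue their transcripts can therefore vary with the number of dividing cells. Repair pathways differ in this respect. Homologous recombination works on replicated DNA and is bound to S and G2 phase, whereas nucleotide excision repair (which removes bulky adducts), base excision repair (which removes single damaged bases) and Mgmt (which takes alkyl groups off guanine) also act in resting cells.

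Total counts per sample lay between 19608787 and 30198281 in mouse and between 21143918 and 30561256 in spiny mouse. Before TMM scaling, 3 counts thus correspond to 0.0982 to 0.153 CPM (counts per 1000000). The levels below are CPM after TMM scaling. Basal keratinocyte genes were abundant in all samples, with a summed level of 6938 to 10040 CPM in untreated and 14080 to 18830 CPM in treated mouse skin, and of 8295 to 10020 and 16660 to 20890 CPM in spiny mouse. Krt5 and Krt14 carried these sums, while Krt15 fell in both species (log2 fold changes -2.05 and -1.64), Col17a1 fell in mouse (-0.89), and Itga6 and Trp63 were not called in mouse. Other tissue markers moved too. Skeletal muscle genes summed to 11870 to 15840 CPM in untreated and 2581 to 3498 CPM in treated mouse skin, and to 11750 to 14770 and 3834 to 7906 CPM in spiny mouse. Genes of the growing (anagen) hair follicle went from 9.84 to 2722 CPM up to 23720 to 26220 CPM in mouse, but ran from 1211 to 12310 CPM in untreated and from 213 to 3586 CPM in treated spiny mouse skin. Neutrophil genes summed to 21.5 to 84.5 CPM in untreated and 966 to 1793 CPM in treated mouse skin, and to 83.0 to 116.1 and 2259 to 2626 CPM in spiny mouse. Most of this was S100a8 and S100a9 (means of 716 and 584 CPM in treated mouse skin), and in mouse Csf3r went from 6.05 to 10.5 CPM and Mmp9 was not called. T cell genes summed to 23.4 to 43.1 CPM in untreated and 24.4 to 30.9 CPM in treated mouse skin (4 of 6 lower), and to 27.7 to 45.3 and 47.7 to 95.3 CPM in spiny mouse (3 of 5 higher). Myeloid genes had 2 of 6 lower in mouse and 3 of 5 higher in spiny mouse, fibroblast genes 2 of 6 lower in mouse and 3 of 6 lower and 1 higher in spiny mouse, and adipocyte genes 3 of 6 lower in each. Of these lists, a gene was at 0 in some sample only for Krt72, Krt73 and Krt85 of the hair follicle in mouse and Mylpf of muscle in spiny mouse. The mouse sample untreated replicate 2 held the 2722 CPM of hair follicle genes, where the other untreated mouse samples had 9.84 to 42.0 CPM, and untreated replicate 1 alone held hepatocyte genes (631.8 CPM against 4.82 to 6.34 CPM).

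Treated skin of both species had more transcript of most of the 49 genes. Within this list the replication and recombination members were mostly higher, and the excision repair members were not. In mouse 34 members (69.4%) were higher and 4 (8.2%) lower in treated skin by the quasi-likelihood test of edgeR, at an adjusted p under 0.05, where 25.9% of the 19740 genes tested were higher and 35.3% lower. In spiny mouse 39 members (79.6%) were higher and 2 (4.1%) lower, against 28.2% and 26.9% of 14833 genes. In either direction this was 38 members (77.6%) beside 61.2% of all genes in mouse and 41 (83.7%) beside 55.1% in spiny mouse. The median log2 fold change (treated over untreated) was 0.79 over the members and -0.15 over all genes in mouse, and 0.85 and -0.01 in spiny mouse. The ranges of the 4 treated and the 4 untreated samples were separate for 39 members in mouse (58.6% of all genes) and for 40 in spiny mouse (50.9%). The call was the same in both species for 38 members, with 32 higher in both and Xpc and Mgmt lower in both. Brca2, Ercc2, Ogg1 and Parp1 were called in neither. The share of all genes with the same call in both species is not given here, so these counts have no background.

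Bulk samples do not tell more dividing cells from more transcript per cell. The 8 mitosis and S/G2 markers (Mki67, Top2a, Ccna2, Ccnb1, Cdk1, Bub1, Aurkb and Plk1) were all higher in treated skin of both species, with a median log2 fold change of 1.56 in mouse and 1.76 in spiny mouse. Their summed level went from 219 to 295 CPM in untreated to 584 to 736 CPM in treated mouse skin, and from 198 to 252 to 618 to 849 CPM in spiny mouse. Their part in the rise of the members was not tested.

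**Figure D1:**
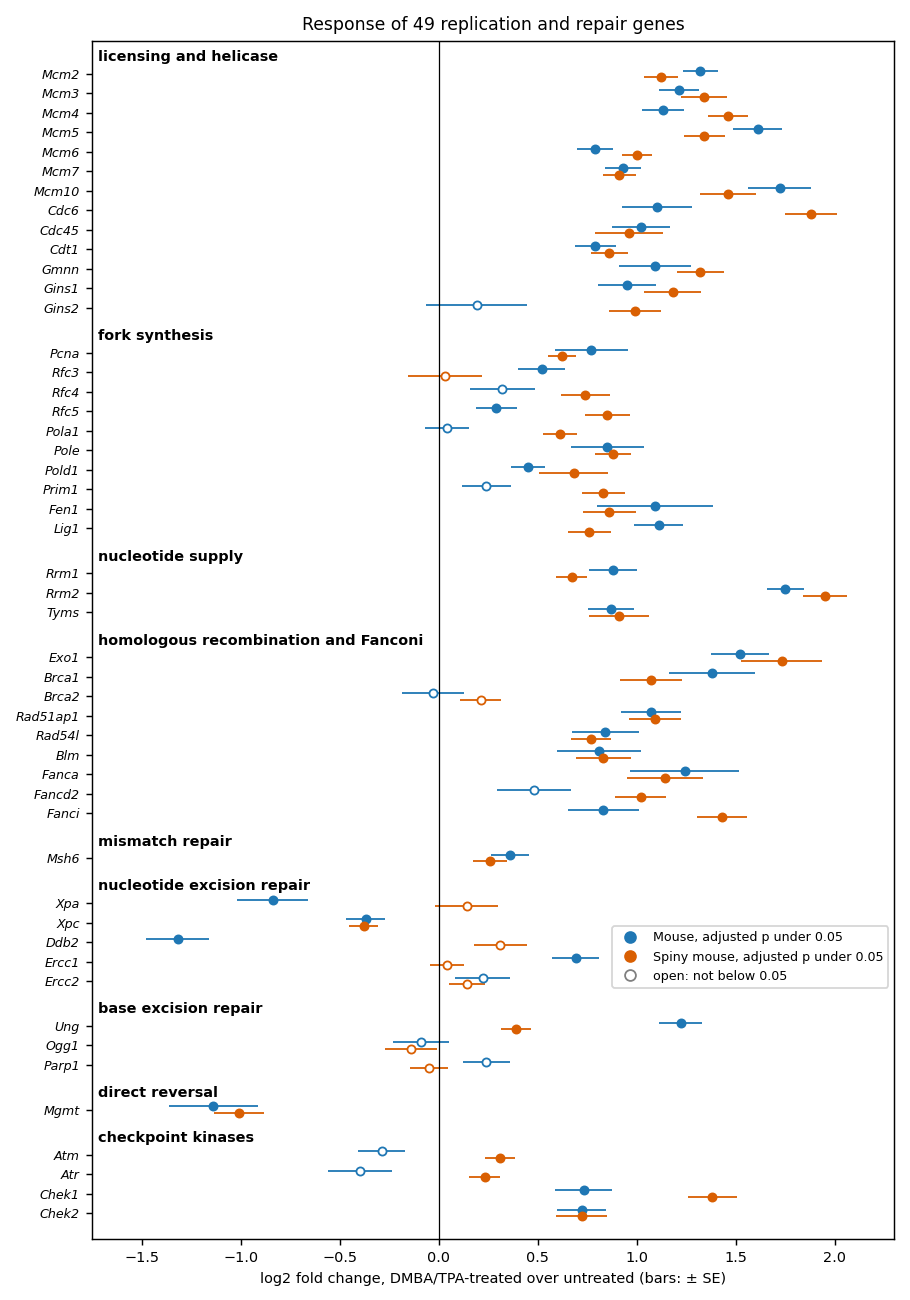
Log2 fold change of each of the 49 members, treated over untreated, in mouse (blue) and spiny mouse (orange), ordered by role, with bars of ± SE (n = 4 samples a group) and open symbols where the edgeR adjusted p was not below 0.05. All members of nucleotide supply lie right of 0 in both species, Mgmt and Xpc lie left of it in both, and Ddb2 and Xpa lie left of 0 in mouse only.

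The promoters of the members were read because so many of them moved together. RefSeq (GRCm38.p6) gave mouse promoter sequence, 250 bases before to 50 after the gene start, for 40 of the 49 members. The letters TTTCCCGC, TTTCGCGC, TTTGCCGC or TTTGGCGC, of the kind that E2F factors bind, were searched on both strands. They occurred in 13 of the 40 member promoters (32.5%), against 704 of 27025 genes in the table (2.6%) and 534 of 12656 genes tested in mouse (4.22%). Among promoters that also hold a GC box (GGGCGG), they were in 8 of 27 members (29.6%) and in 414 of 7934 genes tested in mouse (5.22%). By role they were found in 6 of 9 licensing and helicase genes, 4 of 9 fork genes, 1 of 7 recombination and Fanconi genes and 1 of 4 checkpoint kinases, in the mismatch repair gene Msh6, and in none of the 3 nucleotide supply, 3 nucleotide excision, 3 base excision and 1 direct reversal genes. CCAAT boxes were present in 24 of 40 members (60.0%), 41.1% of all genes and 41.9% of genes tested in mouse. GC boxes were in 27 of 40 members (67.5%) and 38.2% of all genes, but in 62.7% of genes tested in mouse, near the share of the members. CHR-type letters (TTTGAA or TTCGAA) were in 6 of 40 members (15%), 21.7% of all genes and 17.3% of genes tested in mouse.

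The 250 bases before the start of 7 members are shown 5′ to 3′ on the gene's strand, with E2F-type letters in capitals. Mcm6 (chr1:128359706-128359955, minus strand), Mcm7 (chr5:138171884-138172133, minus strand) and Cdc6 (chr11:98907901-98908150, plus strand) are licensing genes that rose and hold the letters. Brca2 (chr5:150522371-150522620, plus strand) holds them and was called in neither species. Rrm2 (chr12:24708004-24708253, plus strand), Ung (chr5:114130185-114130434, plus strand) and Mgmt (chr7:136894336-136894585, plus strand) hold none here, and of these Rrm2 and Ung rose and Mgmt fell. Coordinates are on GRCm38.p6, and the table lists a further start for Mcm7 and for Mgmt.
Mcm6: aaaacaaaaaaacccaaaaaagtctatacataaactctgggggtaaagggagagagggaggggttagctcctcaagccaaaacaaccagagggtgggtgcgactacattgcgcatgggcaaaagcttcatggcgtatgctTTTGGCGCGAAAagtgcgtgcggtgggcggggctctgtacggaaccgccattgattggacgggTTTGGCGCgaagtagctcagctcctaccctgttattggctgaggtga
Mcm7: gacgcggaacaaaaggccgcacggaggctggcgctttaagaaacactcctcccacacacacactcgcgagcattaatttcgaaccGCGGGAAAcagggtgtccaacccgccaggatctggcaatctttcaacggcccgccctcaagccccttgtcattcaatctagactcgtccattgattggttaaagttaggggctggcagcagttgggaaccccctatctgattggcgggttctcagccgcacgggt
Cdc6: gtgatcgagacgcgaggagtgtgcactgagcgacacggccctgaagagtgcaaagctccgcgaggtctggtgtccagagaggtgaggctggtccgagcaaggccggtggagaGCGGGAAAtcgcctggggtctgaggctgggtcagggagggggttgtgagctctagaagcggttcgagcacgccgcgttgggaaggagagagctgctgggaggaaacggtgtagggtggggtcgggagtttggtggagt
Brca2: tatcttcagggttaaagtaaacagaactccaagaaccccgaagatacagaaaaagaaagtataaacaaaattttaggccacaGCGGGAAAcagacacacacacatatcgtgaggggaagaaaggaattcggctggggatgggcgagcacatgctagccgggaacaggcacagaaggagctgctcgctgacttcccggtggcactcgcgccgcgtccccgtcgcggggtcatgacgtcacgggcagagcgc
Rrm2: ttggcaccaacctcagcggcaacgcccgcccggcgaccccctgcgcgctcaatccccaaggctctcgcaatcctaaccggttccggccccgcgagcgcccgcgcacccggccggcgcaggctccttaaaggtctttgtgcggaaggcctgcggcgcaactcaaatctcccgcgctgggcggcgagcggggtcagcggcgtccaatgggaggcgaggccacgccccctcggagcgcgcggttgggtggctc
Ung: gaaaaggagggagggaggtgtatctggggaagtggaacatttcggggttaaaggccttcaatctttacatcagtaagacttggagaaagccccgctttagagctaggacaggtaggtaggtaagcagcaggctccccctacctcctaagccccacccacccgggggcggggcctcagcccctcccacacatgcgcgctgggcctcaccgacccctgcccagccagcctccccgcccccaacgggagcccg
Mgmt: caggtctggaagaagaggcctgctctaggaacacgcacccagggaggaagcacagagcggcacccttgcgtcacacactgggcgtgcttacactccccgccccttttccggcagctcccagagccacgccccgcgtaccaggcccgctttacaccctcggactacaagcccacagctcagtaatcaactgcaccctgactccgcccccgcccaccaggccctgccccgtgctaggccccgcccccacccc
In Mcm6 a forward TTTGGCGC and a reverse TTTCGCGC overlap at 110 and 106 bases before the start, and a further TTTGGCGC lies 47 bases before it. Among the 13 members with E2F-type letters 11 were called higher and 2 were not called in mouse (median log2 fold change 0.79), and among the 27 without them 18 were higher and 2 lower (median 0.81). In spiny mouse, whose own promoters were not analysed here, the medians were 0.76 and 0.83. The medians with and without the letters were thus close in both species.

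**Figure D2:**
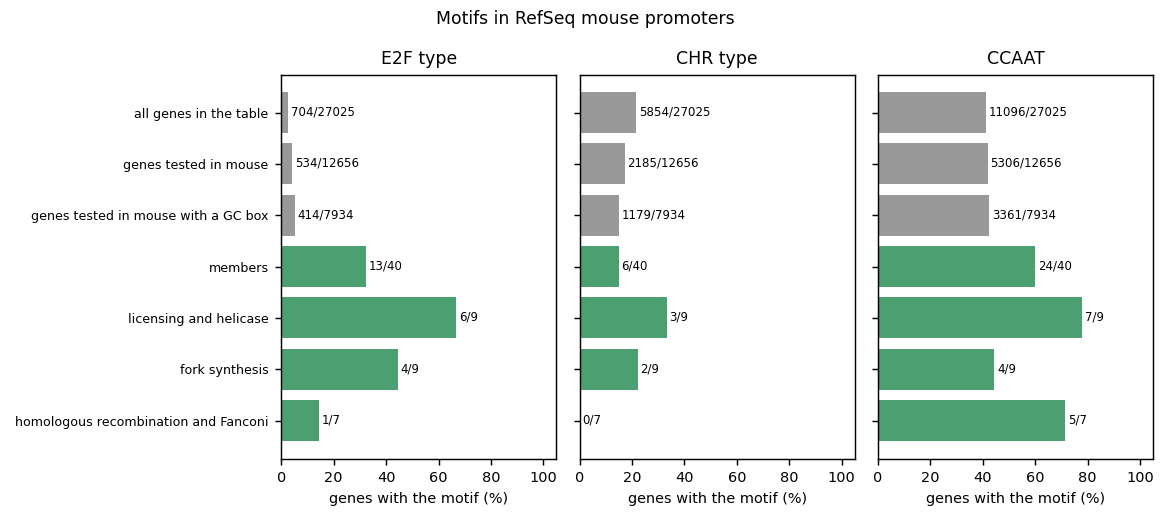
Share of genes (%) whose RefSeq mouse promoter holds the E2F-type, CHR-type or CCAAT letters, for all genes in the table, genes tested in mouse, those of them with a GC box (grey), the members and 3 of their role groups (green), with the counts beside each bar. E2F-type letters are in 13 of 40 members and 6 of 9 licensing genes, against 704 of 27025 genes and 534 of 12656 genes tested in mouse.

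All 13 licensing and helicase genes rose in spiny mouse, and 12 of 13 rose in mouse, with median log2 fold changes of 1.18 and 1.09. The exception in mouse was Gins2. Mcm10 (mouse chromosome 2, 4994525 to 5017602), which helps to switch the loaded helicase on, had the largest rise of the group in mouse. Mouse Mcm10 was at 3.46, 5.31, 4.03 and 3.78 CPM in the 4 untreated samples and at 13.4, 13.8, 14.7 and 12.6 CPM in the treated ones, with no overlap between the groups (log2 fold change 1.72, SE 0.16, edgeR adjusted p 3.65e-05). Spiny mouse Mcm10 was at 3.71, 4.48, 3.06 and 4.11 CPM in untreated and at 11.7, 10.1, 9.37 and 11.2 CPM in treated samples (log2 fold change 1.46, SE 0.14, edgeR adjusted p 5.6e-05).

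Cdc6 (mouse chromosome 11, 98798627 to 98814766), the loader that brings the Mcm ring to the origin, rose most in spiny mouse. In spiny mouse Cdc6 had 3.84, 3.69, 2.83 and 3.34 CPM without and 14.1, 12.5, 10.9 and 12.9 CPM with treatment (log2 fold change 1.88, SE 0.13, edgeR adjusted p 1.39e-05). Untreated mouse samples had 3.501, 5.83, 4.18 and 4.24 CPM of Cdc6 and treated ones 9.92, 9.85, 9.82 and 8.47 CPM (log2 fold change 1.10, SE 0.18, edgeR adjusted p 0.000708). The groups were apart in both species, and the rise was larger in spiny mouse by 0.78 on the log2 scale (SE 0.21, edgeR adjusted p 0.00739 for the species by treatment term). Untreated means were 4.44 ± 0.99 CPM in mouse and 3.42 ± 0.45 CPM in spiny mouse (SD, n = 4), and the treated means were 9.51 ± 0.70 and 12.6 ± 1.29 CPM. The annotations give Cdc6 5229 bases in mouse and 3208 in spiny mouse, so these levels do not rank the species.

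The 6 subunits of the Mcm ring all rose in both species, by log2 fold changes of 0.79 (Mcm6) to 1.61 (Mcm5) in mouse and 0.91 (Mcm7) to 1.46 (Mcm4) in spiny mouse. For Mcm5 (chromosome 8, 75836197 to 75855067), the 4 untreated mouse samples had 27.0, 21.8, 23.0 and 29.9 CPM and the treated ones 83.1, 78.2, 81.3 and 67.9 CPM, a log2 fold change of 1.61 (edgeR adjusted p 1.6e-05, SE 0.12). For Mcm5 in spiny mouse, untreated samples had 25.9, 31.9, 28.1 and 30.1 CPM and treated ones 86.5, 69.0, 67.7 and 69.3 CPM (log2 fold change 1.34, SE 0.10, edgeR adjusted p 2.04e-05). Every treated sample was above every untreated one, and treated spiny mouse replicate 1 stood above the other 3. For Mcm2 (chromosome 6, 88860456 to 88875762), the 4 untreated mouse samples had 26.3, 28.1, 24.4 and 29.3 CPM and the treated ones 67.7, 67.9, 69.2 and 64.3 CPM, a log2 fold change of 1.32 (edgeR adjusted p 9.82e-06, SE 0.09). Mcm2 in spiny mouse measured 33.7, 43.3, 37.6 and 36.9 CPM untreated and 88.7, 77.5, 84.3 and 79.1 CPM treated (log2 fold change 1.12, SE 0.09, edgeR adjusted p 2.07e-05). Mcm4 (chromosome 16, 15441761 to 15455264) had the larger fold change in spiny mouse. The 4 untreated mouse levels of Mcm4 were 30.5, 29.7, 26.3 and 29.4 CPM, and the treated levels 70.5, 67.4, 62.2 and 54.1 CPM (log2 fold change 1.13, SE 0.11, edgeR adjusted p 3.96e-05). Spiny mouse Mcm4 was at 26.2, 30.9, 25.5 and 27.5 CPM in untreated and at 88.3, 73.0, 75.2 and 66.8 CPM in treated samples (log2 fold change 1.46, SE 0.10, edgeR adjusted p 1.34e-05). None of the 6 subunits differed between the species at an adjusted p under 0.05, with differences (spiny mouse minus mouse) from -0.27 for Mcm5 to 0.33 for Mcm4. Mcm2 passed the threshold, with a smaller rise in spiny mouse, when mouse untreated replicate 2 was left out (-0.31, edgeR adjusted p 0.04), and in 3 of 24 alternative fits in all. Mcm4 passed, with a larger rise in spiny mouse, in 4 fits: upper-quartile factors (0.50), library size alone (0.56), and without spiny mouse untreated replicate 2 (0.39) or treated replicate 4 (0.40). Mcm6 passed in the same direction under the former 2 (0.37 and 0.42).

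Per kilobase of the deposited gene length, the untreated levels of the 6 subunits lay between 3.88 (Mcm2) and 10.6 (Mcm6) CPM per kb in mouse and between 7.99 (Mcm4) and 20.6 (Mcm7) in spiny mouse. Treated levels lay between 9.67 (Mcm2) and 19.4 (Mcm5) in mouse and between 21.1 (Mcm6) and 38.6 (Mcm7) in spiny mouse. The mouse annotation gives these genes longer lengths (6956 bases for Mcm2, 3443 in spiny mouse), so the species cannot be ranked by these levels.

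Licensing is held in balance by Cdt1 and its inhibitor geminin, and both rose. Cdt1 went from 13.1 ± 1.11 to 22.5 ± 1.27 CPM in mouse and from 10.49 ± 0.92 to 19.1 ± 1.503 CPM in spiny mouse (log2 fold changes 0.79 and 0.86). Gmnn went from 5.33 ± 1.03 to 11.3 ± 1.72 and from 5.84 ± 0.46 to 14.6 ± 1.97 CPM (1.09 and 1.32, with 23.0% of its mouse exon bases shared with another gene). Mcm3, Mcm6 and Mcm7 rose by 1.21, 0.79 and 0.93 in mouse and by 1.34, 1.0 and 0.91 in spiny mouse. The helicase cofactor Cdc45 and the GINS subunit Gins1 rose by 1.02 and 0.95 in mouse and 0.96 and 1.18 in spiny mouse.

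Gins2, a further GINS subunit, was the licensing gene that was not called in mouse. Gins2 in mouse measured 8.63, 3.82, 8.43 and 8.66 CPM without and 7.14, 7.82, 10.1 and 8.54 CPM with treatment (log2 fold change 0.19, SE 0.26, edgeR adjusted p 0.544), and untreated replicate 2 was the lowest of the 8. In spiny mouse Gins2 had 4.70, 4.64, 4.22 and 3.84 CPM without and 9.87, 8.40, 9.11 and 7.13 CPM with treatment, with separate groups (log2 fold change 0.99, SE 0.13, edgeR adjusted p 0.000281). The species difference was 0.80 (SE 0.30, edgeR adjusted p 0.0378), and it passed the threshold in 10 of 24 alternative fits. It was lost without mouse untreated replicate 1, 3 or 4, mouse treated replicate 1, 2 or 4, spiny mouse untreated replicate 3 or 4, or spiny mouse treated replicate 1, 2 or 3 (0.66 to 0.82). Of the mouse exon bases of Gins2, 67.3% overlap Gse1 on the opposite strand, and reads over such bases were not counted for either gene.

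Fork synthesis genes had smaller median log2 fold changes than the helicase genes, 0.48 in mouse and 0.75 in spiny mouse. Of the 10 genes 7 rose in mouse and 9 in spiny mouse, and none fell. Lig1 (mouse chromosome 7, 13011239 to 13045350), the ligase that seals Okazaki fragments, was the leading gene in mouse. Mouse Lig1 was at 16.6, 21.1, 14.3 and 18.2 CPM in the 4 untreated samples and at 38.0, 38.1, 39.9 and 36.0 CPM in the treated ones (log2 fold change 1.11, SE 0.12, edgeR adjusted p 9.81e-05). For Lig1 in spiny mouse, untreated samples had 30.6, 33.4, 27.9 and 25.7 CPM and treated ones 58.0, 46.3, 50.1 and 44.8 CPM (log2 fold change 0.76, SE 0.11, edgeR adjusted p 0.000422). Both species had separate groups. Without mouse untreated replicate 2 the rise in spiny mouse was smaller than that in mouse (difference -0.55, edgeR adjusted p 0.00629), while with all samples the difference was -0.36 (adjusted p 0.0891).

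Pole (mouse chromosome 5, 110434172 to 110485340), the catalytic subunit of the leading-strand polymerase epsilon, rose by like amounts. Untreated mouse samples had 13.6, 22.6, 12.6 and 16.3 CPM of Pole and treated ones 33.7, 26.9, 27.8 and 29.0 CPM (log2 fold change 0.85, SE 0.18, edgeR adjusted p 0.00335). Pole in spiny mouse measured 11.8, 12.0, 10.52 and 11.7 CPM untreated and 24.3, 20.6, 20.6 and 19.2 CPM treated (log2 fold change 0.88, SE 0.09, edgeR adjusted p 8.39e-05). Untreated mouse replicate 2 was the highest of its group but still below every treated sample. Fen1, the nuclease that trims Okazaki fragments, was hardly counted in mouse. The 4 untreated mouse levels of Fen1 were 0.651, 0.921, 0.623 and 0.774 CPM, and the treated levels 2.15, 1.23, 1.20 and 1.78 CPM (log2 fold change 1.09, SE 0.29, edgeR adjusted p 0.00978). Spiny mouse Fen1 was at 19.7, 29.4, 19.8 and 20.3 CPM in untreated and at 44.4, 40.8, 38.1 and 38.8 CPM in treated samples (log2 fold change 0.86, SE 0.14, edgeR adjusted p 0.000671). In the mouse annotation 84.2% of the exon bases of Fen1 are shared with Tmem258 and Gm10143 on the opposite strand, so its mouse counts rest on the remainder.

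The clamp Pcna and its loader, replication factor C, behaved unevenly. Pcna rose from 39.6 ± 10.3 to 67.8 ± 2.37 CPM in mouse, where untreated replicate 2 (24.3 CPM) was below the other 3 (43.3 to 46.8 CPM), and from 65.3 ± 5.42 to 100.3 ± 4.55 CPM in spiny mouse (log2 fold changes 0.77 and 0.62). Rfc5 (mouse chromosome 5, 117516168 to 117527112) is a small subunit of the loader. Rfc5 in mouse measured 16.9, 20.0, 21.4 and 19.9 CPM without and 22.1, 24.1, 24.3 and 25.2 CPM with treatment (log2 fold change 0.29, SE 0.10, edgeR adjusted p 0.0361). In spiny mouse Rfc5 had 10.2, 11.3, 11.6 and 10.9 CPM without and 23.2, 19.0, 21.4 and 16.2 CPM with treatment (log2 fold change 0.85, SE 0.12, edgeR adjusted p 0.000301). The mouse groups were close and those of spiny mouse far apart, and the rise was larger in spiny mouse by 0.56 (SE 0.15, edgeR adjusted p 0.00701). The mouse rise of Rfc5 fell below the threshold in 7 of 16 alternative fits, with 0.05 under library-size scaling (adjusted p 0.73). It was also lost without untreated replicate 1 (0.24, adjusted p 0.0883) or 4 (0.30) and without treated replicate 3 (0.31) or 4 (0.29).

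Rfc3 rose in mouse, from 10.9 ± 1.11 to 15.6 ± 1.22 CPM (log2 fold change 0.52, edgeR adjusted p 0.0049), and was 2.14 ± 0.28 and 2.18 ± 0.41 CPM in spiny mouse (0.03, adjusted p 0.916). The difference of -0.49 had an adjusted p of 0.0544. It was below 0.05 in 10 of 24 alternative fits, among them those without mouse untreated replicate 2 (-0.52, adjusted p 0.0301) and without treated spiny mouse replicate 1 (-0.62, adjusted p 0.0133). Rfc4 had the converse pattern, 8.65 ± 1.74 and 10.8 ± 1.14 CPM in mouse (0.32, adjusted p 0.113) and 8.79 ± 1.25 and 14.7 ± 1.65 CPM in spiny mouse (0.74, adjusted p 0.000909). Its difference of 0.42 did not pass (adjusted p 0.107), but did in 3 of 24 alternative fits: upper-quartile factors (0.58), library size alone (0.64), and without spiny mouse untreated replicate 2 (0.52, adjusted p 0.0482). Without mouse untreated replicate 3 the mouse change passed (0.53, adjusted p 0.0132).

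Of the genes that make the primer, Pola1 and Prim1 differed between the species. Pola1, the catalytic subunit of polymerase alpha, was at 23.6 ± 2.62 and 24.2 ± 2.07 CPM in mouse, where the groups overlapped (log2 fold change 0.04, edgeR adjusted p 0.78). In spiny mouse it rose from 29.1 ± 1.01 to 44.5 ± 4.95 CPM (0.61, adjusted p 0.000406). The primase subunit Prim1 was at 16.7 ± 2.70 and 19.7 ± 0.34 CPM in mouse (0.24, adjusted p 0.125), while spiny mouse went from 7.27 ± 0.68 to 12.9 ± 1.27 CPM (0.83, adjusted p 0.000238). The species differences were 0.57 (SE 0.14, adjusted p 0.00318) and 0.59 (SE 0.16, adjusted p 0.00745), and both passed in all 24 alternative fits. Prim2, the other primase subunit and no member, rose in both species (0.59 and 0.90), with a difference of 0.31 that did not pass (adjusted p 0.0863). Without mouse untreated replicate 2 the mouse change of Prim1 itself passed (0.25, adjusted p 0.0474), as it did without untreated replicate 4 (0.35, adjusted p 0.0304). Pold1, the catalytic subunit of polymerase delta, rose by 0.45 in mouse and 0.68 in spiny mouse. Its mouse call was lost under upper-quartile factors (0.25, adjusted p 0.0532) and library size alone (0.21, adjusted p 0.0821).

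Nucleotide supply held the largest rise of all 49 genes. Rrm2 (mouse chromosome 12, 24758240 to 24764145) encodes the small subunit of ribonucleotide reductase, which makes deoxynucleotides and is limiting in S phase. Mouse Rrm2 was at 20.0, 19.3, 19.4 and 22.5 CPM in the 4 untreated samples and at 70.9, 66.3, 71.8 and 63.9 CPM in the treated ones (log2 fold change 1.75, SE 0.09, edgeR adjusted p 3.87e-06). For Rrm2 in spiny mouse, untreated samples had 33.2, 39.8, 32.8 and 33.1 CPM and treated ones 163, 130.5, 121 and 122 CPM (log2 fold change 1.95, SE 0.11, edgeR adjusted p 8.32e-06). The groups were far apart in both species, with a fold of 3.36 in mouse and 3.86 in spiny mouse, and the species difference of 0.20 (SE 0.14) had an adjusted p of 0.266.

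Its partner Rrm1 (mouse chromosome 7, 102090902 to 102118978), the large subunit, rose less. Untreated mouse samples had 83.3, 60.3, 73.5 and 71.5 CPM of Rrm1 and treated ones 145, 133, 138 and 117 CPM (log2 fold change 0.88, SE 0.12, edgeR adjusted p 0.000318). Rrm1 in spiny mouse measured 76.5, 76.4, 78.8 and 87.5 CPM untreated and 143, 120.1, 126 and 118 CPM treated (log2 fold change 0.67, SE 0.08, edgeR adjusted p 0.000129). Tyms (mouse chromosome 5, 30263200 to 30278615), the thymidylate synthase, completes the group. The 4 untreated mouse levels of Tyms were 11.3, 14.3, 12.5 and 12.2 CPM, and the treated levels 22.9, 24.1, 24.8 and 19.9 CPM (log2 fold change 0.87, SE 0.12, edgeR adjusted p 0.000282). Spiny mouse Tyms was at 7.62, 8.21, 5.99 and 5.58 CPM in untreated and at 14.5, 10.9, 12.2 and 14.1 CPM in treated samples (log2 fold change 0.91, SE 0.15, edgeR adjusted p 0.000925). All 3 genes had separate groups in both species, and no species difference passed the test. That of Rrm2 passed under upper-quartile and library-size scaling (0.37 and 0.42). Per kilobase Rrm2 was above Rrm1 in mouse without treatment (7.33 and 6.55 CPM per kb) and with it (24.6 and 12.1). In spiny mouse Rrm2 was below Rrm1 without treatment (11.7 and 20.2 CPM per kb) and above it with treatment (45.2 and 32.2). The annotations give Rrm1 11012 bases in mouse and 3943 in spiny mouse, and Rrm2 2771 and 2967. The order of the 2 genes per kilobase depends on these lengths, so it cannot be compared between the species. In CPM, untreated mouse skin had more Rrm1 than Rrm2 (72.2 and 20.3).

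**Figure D3:**
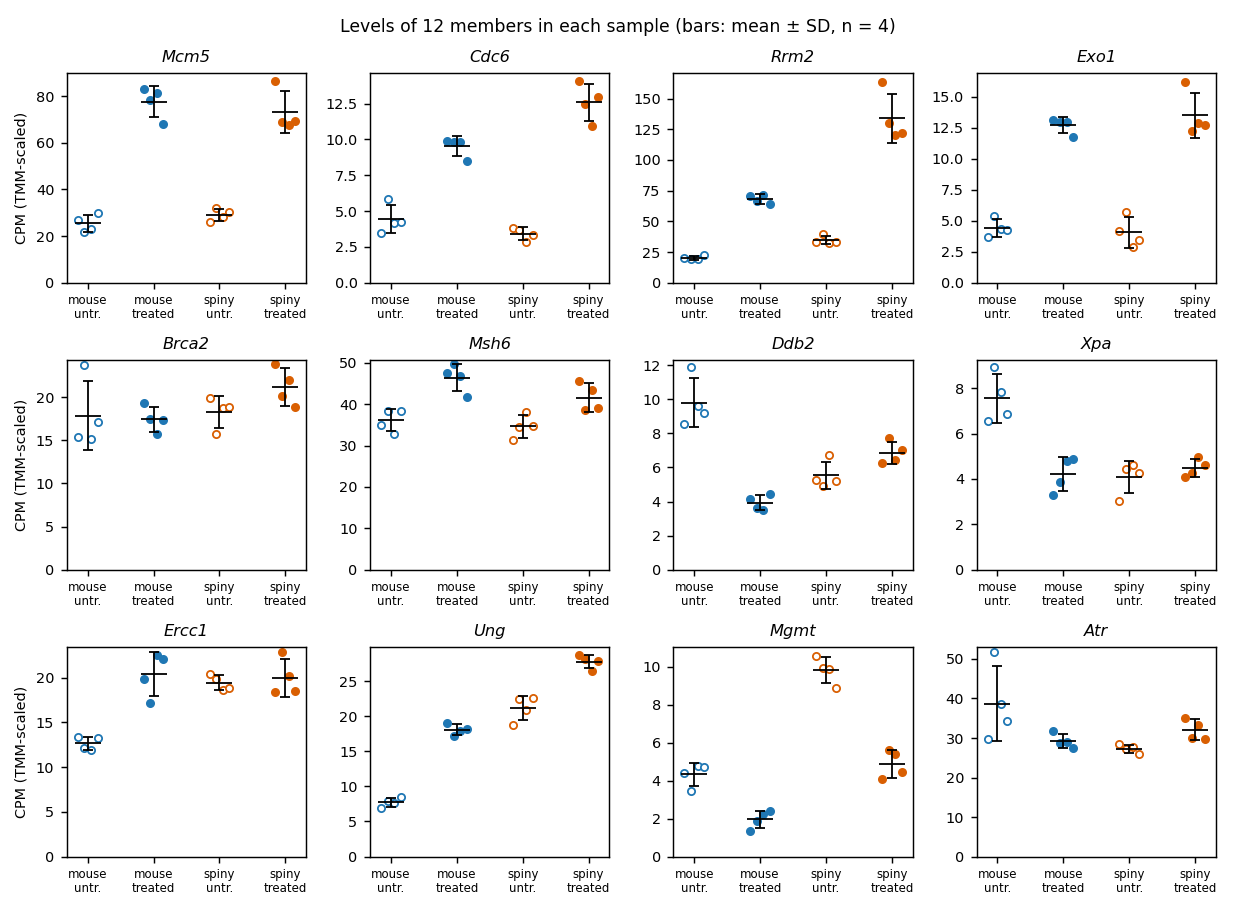
TMM-scaled CPM of 12 members in each of the 16 samples (points; open untreated, filled treated; blue mouse, orange spiny mouse) with the mean ± SD of each group of 4. The groups of Rrm2 and Mcm5 are far apart in both species, Ddb2 and Xpa are lower in treated skin in mouse only, and the groups of Ung are farther apart in mouse than in spiny mouse.

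Of the 9 homologous recombination and Fanconi members 7 were higher in mouse and 8 in spiny mouse, with medians of 0.84 and 1.07. The 29 other genes of this role did not share this in mouse, where 5 were higher and 6 lower (summed level 388 ± 28.9 CPM untreated and 374 ± 8.95 CPM treated), while 15 were higher and 2 lower in spiny mouse. Exo1 (mouse chromosome 1, 175708147 to 175741055), an exonuclease that resects broken ends and also serves mismatch repair, led in both. Exo1 in mouse measured 3.71, 5.39, 4.36 and 4.28 CPM without and 13.1, 12.97, 12.98 and 11.7 CPM with treatment (log2 fold change 1.52, SE 0.14, edgeR adjusted p 4.43e-05). In spiny mouse Exo1 had 4.22, 5.75, 2.93 and 3.43 CPM without and 16.2, 12.3, 12.9 and 12.7 CPM with treatment (log2 fold change 1.73, SE 0.20, edgeR adjusted p 0.000147). Brca1 (mouse chromosome 11, 101379590 to 101442781) directs breaks into recombination. Mouse Brca1 was at 5.29, 10.9, 6.34 and 6.20 CPM in the 4 untreated samples and at 20.6, 19.0, 18.1 and 17.3 CPM in the treated ones (log2 fold change 1.38, SE 0.22, edgeR adjusted p 0.000631). For Brca1 in spiny mouse, untreated samples had 11.3, 12.7, 8.24 and 11.9 CPM and treated ones 28.2, 21.4, 23.2 and 19.7 CPM (log2 fold change 1.07, SE 0.15, edgeR adjusted p 0.00044). Untreated mouse replicate 2 had the highest Brca1 of its group, and without it the rise in spiny mouse was smaller than in mouse by 0.68 (difference -0.68, edgeR adjusted p 0.0106), where with it the difference was -0.31 (adjusted p 0.368).

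Of the Fanconi genes, whose products unhook crosslinked strands, Fanca and Fanci rose in both species and Fancd2 in spiny mouse. For Fanca (mouse chromosome 8, 123995039 to 124045315), of the core complex, the 4 untreated mouse samples had 3.95, 8.46, 3.77 and 4.05 CPM and the treated ones 14.3, 10.2, 12.8 and 10.6 CPM, a log2 fold change of 1.24 (edgeR adjusted p 0.0039, SE 0.28). Fanca in spiny mouse measured 4.22, 5.43, 3.23 and 4.71 CPM untreated and 12.4, 7.93, 8.53 and 9.82 CPM treated (log2 fold change 1.14, SE 0.19, edgeR adjusted p 0.00102). Untreated mouse replicate 2 lay between the other untreated and the treated samples. Fanci (mouse chromosome 7, 79041677 to 79100012) pairs with Fancd2 in the clamp that marks the lesion. Untreated mouse samples had 3.62, 4.30, 2.75 and 3.599 CPM of Fanci and treated ones 7.19, 6.55, 6.15 and 5.50 CPM (log2 fold change 0.83, SE 0.18, edgeR adjusted p 0.00356). Spiny mouse Fanci was at 4.87, 5.59, 4.29 and 4.21 CPM in untreated and at 14.3, 13.2, 11.2 and 12.3 CPM in treated samples (log2 fold change 1.43, SE 0.13, edgeR adjusted p 3.94e-05). The larger rise of Fanci in spiny mouse (0.60, SE 0.21, adjusted p 0.0286) passed in 13 of 24 alternative fits and not without mouse untreated replicate 2 (0.40, adjusted p 0.1). It was also lost without mouse treated replicate 2, 3 or 4, spiny mouse untreated replicate 3 or 4, or spiny mouse treated replicate 1 (0.51 to 0.56). Fancd2 was at 5.99 ± 1.08 and 8.34 ± 1.58 CPM in mouse (0.48, adjusted p 0.0523, and 0.69 with adjusted p 0.00314 without untreated replicate 2). It rose from 6.74 ± 0.49 to 13.7 ± 2.24 CPM in spiny mouse (1.02, adjusted p 0.000215). The species difference of Fancd2 was 0.54 and did not pass (edgeR adjusted p 0.0622), but did in 5 of 24 alternative fits. Its mouse change passed in 7 of 16 alternative fits.

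Rad51ap1 and Rad54l, which act in recombination, rose by 1.07 and 0.84 in mouse and by 1.09 and 0.77 in spiny mouse, and the helicase gene Blm by 0.81 and 0.83. The mouse call of Blm was lost under upper-quartile factors (0.59, adjusted p 0.055) and library size alone (0.56, adjusted p 0.062). Brca2, a mediator of recombination, stood apart from its pathway. Its level was 17.8 ± 4.01 and 17.5 ± 1.45 CPM in mouse (log2 fold change -0.03, SE 0.16, edgeR adjusted p 0.874) and 18.3 ± 1.81 and 21.2 ± 2.17 CPM in spiny mouse (0.21, SE 0.10, adjusted p 0.107), and the groups overlapped in both species. Untreated mouse replicate 2 was again high, at 23.7 CPM against 15.1 to 17.2 CPM.

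Msh6 (mouse chromosome 17, 88282490 to 88298320), a subunit of the complex that recognises mismatches, rose slightly. The 4 untreated mouse levels of Msh6 were 35.0, 38.4, 32.8 and 38.4 CPM, and the treated levels 47.5, 49.6, 46.7 and 41.8 CPM (log2 fold change 0.36, SE 0.10, edgeR adjusted p 0.00899). In spiny mouse Msh6 had 31.3, 34.6, 38.1 and 34.8 CPM without and 45.5, 38.5, 43.3 and 39.0 CPM with treatment (log2 fold change 0.26, SE 0.09, edgeR adjusted p 0.0272). The groups did not overlap in either species, yet they lay close together. The mouse call was lost under upper-quartile and library-size scaling (0.15 and 0.12), and the spiny mouse call in 7 of 15 alternative fits, among them those without untreated replicates 1 or 4 or treated replicates 1 or 3 (0.21, 0.26, 0.22 and 0.24). Of 6 other mismatch repair genes 3 were lower and none higher in mouse, and 1 was higher and 1 lower in spiny mouse.

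The 5 members of nucleotide excision repair, the pathway for bulky adducts, did not follow the replication members, and Ddb2 and Xpa had the largest species differences among the 49. Of 18 other genes of this pathway 8 rose and 2 fell in mouse, and 3 rose and 3 fell in spiny mouse. In mouse 3 of its 5 members fell (Ddb2, Xpa and Xpc) and Ercc1 rose, and in spiny mouse Xpc alone passed the test. Ddb2 (mouse chromosome 2, 91041917 to 91067327; spiny mouse scaffold_1, 55370163 to 55395122) encodes the damage sensor that hands lesions to Xpc. Ddb2 in mouse measured 8.55, 11.9, 9.60 and 9.20 CPM without and 4.15, 3.604, 3.53 and 4.42 CPM with treatment, and every treated sample was below every untreated one (log2 fold change -1.32, SE 0.16, edgeR adjusted p 0.000149). For Ddb2 in spiny mouse, untreated samples had 5.27, 4.92, 6.71 and 5.21 CPM and treated ones 6.28, 7.72, 6.44 and 7.04 CPM, with overlapping groups (log2 fold change 0.31, SE 0.13, edgeR adjusted p 0.0718). The species difference of 1.63 (SE 0.20, edgeR adjusted p 1.33e-05) was the largest of the 49 and passed in all 24 alternative fits. Exon bases shared with Acp2 make up 23.8% of Ddb2 in mouse and 43.6% in spiny mouse, so its counts are uncertain in both. The treated means were 3.93 ± 0.43 CPM in mouse and 6.87 ± 0.65 CPM in spiny mouse, from untreated means of 9.81 ± 1.45 and 5.53 ± 0.80 CPM.

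Xpa (mouse chromosome 4, 46155347 to 46196311; spiny mouse scaffold_2, 115227533 to 115243715) is the scaffold protein that verifies the lesion. Mouse Xpa was at 6.56, 8.95, 7.84 and 6.88 CPM in the 4 untreated samples and at 3.31, 3.87, 4.80 and 4.86 CPM in the treated ones, again with separate groups (log2 fold change -0.84, SE 0.18, edgeR adjusted p 0.00347). Xpa in spiny mouse measured 3.03, 4.44, 4.60 and 4.25 CPM untreated and 4.09, 4.25, 4.98 and 4.62 CPM treated (log2 fold change 0.14, SE 0.16, edgeR adjusted p 0.483). The difference of 0.98 (SE 0.23, adjusted p 0.00323) passed in all 24 alternative fits.

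Xpc (mouse chromosome 6, 91466287 to 91492870), the other damage sensor, fell in both species by like amounts. Untreated mouse samples had 26.0, 28.6, 23.4 and 28.6 CPM of Xpc and treated ones 20.4, 20.8, 20.3 and 21.0 CPM (log2 fold change -0.37, SE 0.10, edgeR adjusted p 0.00917). Spiny mouse Xpc was at 24.5, 24.1, 25.7 and 22.5 CPM in untreated and at 17.7, 18.1, 18.7 and 19.9 CPM in treated samples (log2 fold change -0.38, SE 0.07, edgeR adjusted p 0.00182). The groups were separate in both, and the species difference was -0.01 (SE 0.11, adjusted p 0.944). The mouse call was lost in 3 of 16 alternative fits, among them those without treated replicate 2 (-0.28, adjusted p 0.0874) and without untreated replicates 1 and 2 (-0.23, adjusted p 0.0971).

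Ercc1 (mouse chromosome 7, 19078703 to 19090449), a subunit of the nuclease that cuts 5′ of the lesion and also serves crosslink repair, was the member of this pathway that rose in mouse. The 4 untreated mouse levels of Ercc1 were 13.4, 12.2, 11.9 and 13.3 CPM, and the treated levels 19.9, 17.2, 22.5 and 22.1 CPM (log2 fold change 0.69, SE 0.12, edgeR adjusted p 0.00102). In spiny mouse Ercc1 had 20.4, 19.8, 18.7 and 18.8 CPM without and 18.4, 22.8, 20.2 and 18.5 CPM with treatment, with overlapping groups (log2 fold change 0.04, SE 0.09, edgeR adjusted p 0.711). The difference of -0.65 (SE 0.14, adjusted p 0.00157) passed in all 24 alternative fits. Ercc2, a helicase of the repair and transcription factor TFIIH, was called in neither species (0.22 and 0.14), with 42.7% of its mouse exon bases shared with other genes. It passed in mouse without untreated replicate 2 (0.39, adjusted p 0.016).

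Base excision repair moved through 1 of its 3 members, Ung (mouse chromosome 5, 114268447 to 114277384), the glycosylase that removes uracil from DNA. Ung in mouse measured 6.96, 7.98, 7.58 and 8.43 CPM without and 19.0, 17.2, 17.9 and 18.2 CPM with treatment (log2 fold change 1.22, SE 0.11, edgeR adjusted p 3.06e-05). For Ung in spiny mouse, untreated samples had 18.8, 22.5, 20.8 and 22.6 CPM and treated ones 28.8, 28.1, 26.4 and 27.9 CPM (log2 fold change 0.39, SE 0.08, edgeR adjusted p 0.00227). The rise was smaller in spiny mouse by 0.83 (difference -0.83, SE 0.12, adjusted p 5.02e-05, passing in all 24 alternative fits). The groups were separate in both species. Ogg1, the glycosylase for oxidised guanine, and Parp1, the sensor of strand breaks, were called in neither species, with log2 fold changes of -0.09 and 0.24 in mouse and -0.14 and -0.05 in spiny mouse. Parp1 passed in mouse without untreated replicate 2 (0.39, adjusted p 0.0075) and in 6 of 16 alternative fits in all.

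Mgmt (mouse chromosome 7, 136496343 to 136731995), the protein that reverses alkylated guanine and is used up in doing so, fell in both species. Mouse Mgmt was at 4.40, 3.47, 4.76 and 4.74 CPM in the 4 untreated samples and at 1.37, 1.89, 2.22 and 2.38 CPM in the treated ones (log2 fold change -1.14, SE 0.22, edgeR adjusted p 0.00213). Mgmt in spiny mouse measured 10.6, 9.96, 9.91 and 8.87 CPM untreated and 4.09, 5.61, 5.38 and 4.43 CPM treated (log2 fold change -1.01, SE 0.13, edgeR adjusted p 0.000215). All treated samples were below all untreated ones of the same species. The folds were 2.20 and 2.01, the difference of 0.12 (SE 0.23) had an adjusted p of 0.692, and the call was kept in every alternative fit of either species. Levels were low in mouse, 4.34 ± 0.61 falling to 1.96 ± 0.45 CPM, and 9.83 ± 0.71 falling to 4.88 ± 0.73 CPM in spiny mouse. Skeletal muscle genes fell in the same samples, 10 of 10 in mouse and 9 of 9 tested in spiny mouse, and their part in the lower levels of Mgmt, Xpc, Ddb2 and Xpa was not tested.

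All 4 checkpoint kinases were higher in spiny mouse, while in mouse only the 2 effectors, Chek1 and Chek2, were called. Chek1 (mouse chromosome 9, 36619778 to 36638361), the effector of stalled forks, rose in both. Untreated mouse samples had 5.05, 5.66, 5.39 and 4.51 CPM of Chek1 and treated ones 9.03, 9.67, 7.38 and 8.24 CPM (log2 fold change 0.73, SE 0.15, edgeR adjusted p 0.00227). Spiny mouse Chek1 was at 4.93, 6.35, 4.73 and 5.21 CPM in untreated and at 15.3, 13.6, 14.2 and 12.1 CPM in treated samples (log2 fold change 1.38, SE 0.12, edgeR adjusted p 4.01e-05). The larger rise in spiny mouse (0.65, SE 0.18, adjusted p 0.00845) was lost only in the fit without mouse untreated replicates 1 and 2 (0.49, adjusted p 0.0568). Chek2 (mouse chromosome 5, 110987845 to 111022011), the effector of double-strand breaks, also rose in both. The 4 untreated mouse levels of Chek2 were 6.88, 8.38, 7.29 and 7.97 CPM, and the treated levels 12.8, 12.8, 13.7 and 11.1 CPM (log2 fold change 0.72, SE 0.12, edgeR adjusted p 0.00104). In spiny mouse Chek2 had 3.98, 4.52, 4.77 and 3.70 CPM without and 7.46, 6.75, 7.61 and 6.12 CPM with treatment (log2 fold change 0.72, SE 0.13, edgeR adjusted p 0.0014). The interval of its species difference ran from -0.36 to 0.34.

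The sensor kinases had fold changes of opposite sign in the 2 species, of which only those of spiny mouse passed the test. Atm (mouse chromosome 9, 53350449 to 53448040; spiny mouse scaffold_8, 17705422 to 17802224) answers double-strand breaks. Atm in mouse measured 48.5, 66.1, 52.4 and 49.97 CPM without and 46.4, 45.0, 46.9 and 38.9 CPM with treatment (log2 fold change -0.29, SE 0.12, edgeR adjusted p 0.0583), so that the groups did not overlap while the test was missed. For Atm in spiny mouse, untreated samples had 65.1, 64.7, 70.5 and 73.7 CPM and treated ones 95.5, 78.4, 83.2 and 82.5 CPM (log2 fold change 0.31, SE 0.08, edgeR adjusted p 0.00754). Atr (mouse chromosome 9, 95739650 to 95833834; spiny mouse scaffold_14, 26429438 to 26531694) answers stalled forks. Mouse Atr was at 29.7, 51.8, 38.7 and 34.4 CPM in the 4 untreated samples and at 31.7, 28.8, 29.0 and 27.6 CPM in the treated ones, with overlapping groups and untreated replicate 2 far above the rest (log2 fold change -0.40, SE 0.16, edgeR adjusted p 0.0538). Atr in spiny mouse measured 28.4, 27.2, 27.6 and 26.0 CPM untreated and 35.1, 30.1, 33.4 and 29.8 CPM treated (log2 fold change 0.23, SE 0.08, edgeR adjusted p 0.0268). The species differences were 0.60 (SE 0.14, adjusted p 0.00321) for Atm, in all 24 alternative fits, and 0.63 (SE 0.18, adjusted p 0.0103) for Atr, lost only without mouse treated replicate 2 (0.54, adjusted p 0.0512). The rise of Atr in spiny mouse was lost in 4 of 15 alternative fits, among them those without untreated replicate 4 (0.21) and treated replicates 1 (0.19) or 3 (0.21). Scaling changed the mouse calls, since both genes passed as lower with upper-quartile factors (-0.51 and -0.62) and with library size alone (-0.54 and -0.65). Atr also passed without untreated replicate 1 (-0.49, adjusted p 0.0192).

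Across the 49 genes the species by treatment term was called for 13, or 26.5%, with spiny mouse above mouse in 11 and below it in 2. Of 13656 genes tested 21.4% were larger and 24.7% smaller, 46.1% in all, so the members' share of called differences was below the background. The 11 were Cdc6, Gins2, Rfc5, Pola1, Prim1, Fanci, Xpa, Ddb2, Atm, Atr and Chek1, and the 2 were Ercc1 and Ung. The median difference was 0.05 over the members and -0.03 over all genes. The balance of directions moved with scaling and with the removal of 1 library. Positive differences (spiny mouse above mouse) made up 84.6% of the member calls under TMM, 69.2% under DESeq2 size factors in edgeR, 66.7% with the DESeq2 test, 60.0% without a low-count filter, and 88.9% with upper-quartile factors or library size alone. Over all genes these shares were 46.4%, 36.9%, 37.2%, 36.3%, 61.2% and 66.2%. Without mouse untreated replicate 2, which carried the hair follicle genes, 18 members were called, 10 larger and 8 smaller. Calls over all genes rose too, to 7711 of 13701 tested from 6290 of 13656. Hair follicle genes had fold changes of opposite sign (9 of 10 called higher in mouse, 1 of 9 tested called lower in spiny mouse, and the difference called for 9 of 9). The difference was also called for 5 of 5 T cell genes and 3 of 5 myeloid genes, all with the larger log2 fold change in spiny mouse. The part of hair follicle, T cell and myeloid genes in the differences of the members was not tested.

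**Figure D4:**
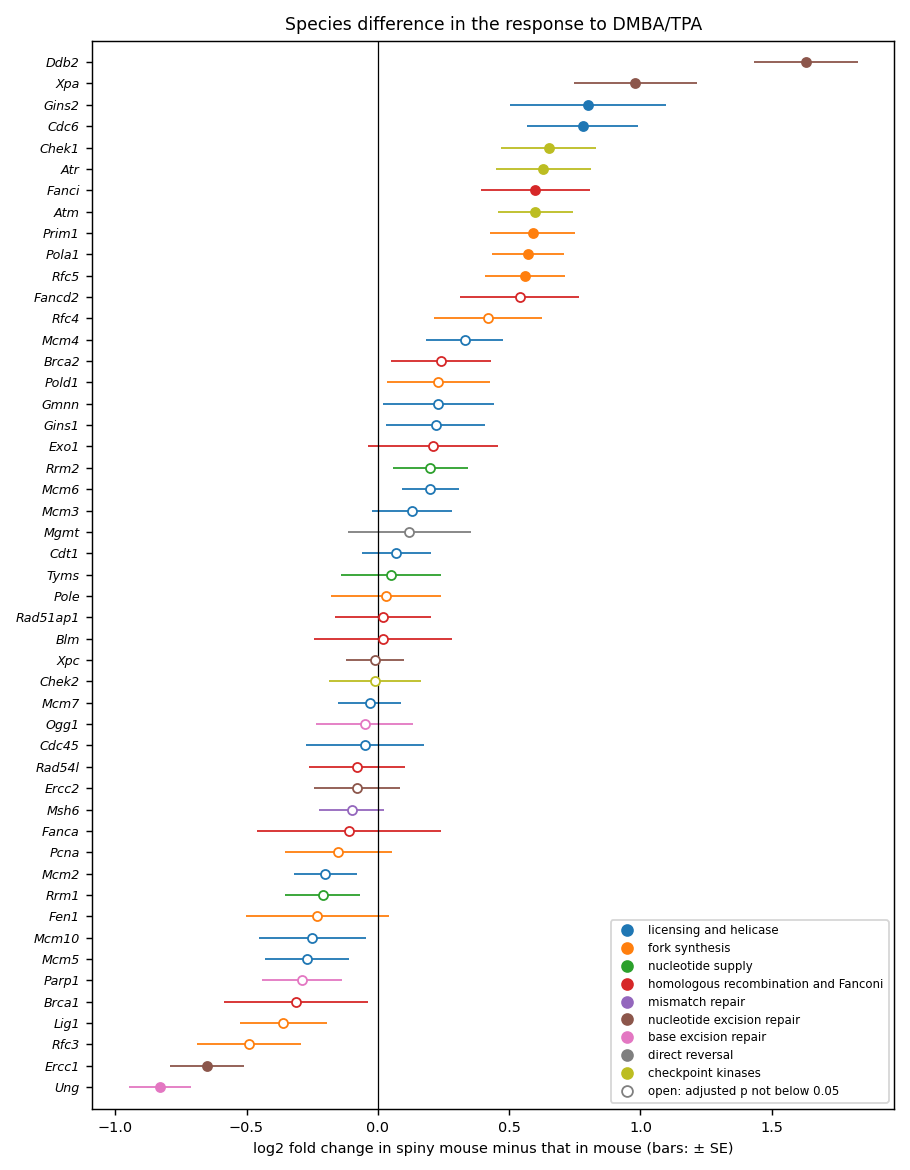
Difference of the log2 fold changes, spiny mouse minus mouse, for the 49 members in order of size, with bars of ± SE, coloured by role and open where the edgeR adjusted p was not below 0.05. Ddb2 at 1.63 and Xpa at 0.98 lie at the top, and Ercc1 at -0.65 and Ung at -0.83 at the bottom, so that members of excision repair occupy both ends.

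Single libraries were high or low for many members at once. In mouse, untreated replicate 2 was the highest of 4 for 27 of 49 members and treated replicate 4 the lowest for 26. In spiny mouse, treated replicate 1 was the highest for 39 of 49 members and untreated replicate 2 for 28. Treated spiny mouse replicate 1 also had the highest summed level of mitosis and S/G2 markers, 849 CPM against 618 to 686 CPM. Leaving out that sample left 39 members called in spiny mouse, 37 higher and 2 lower, beside 7380 of 15027 genes tested. Leaving out mouse untreated replicate 2 gave 42 called in mouse, 38 higher and 4 lower. Calls over all mouse genes then rose as well, to 13944 of 20009 tested from 12085 of 19740.

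**Figure D5:**
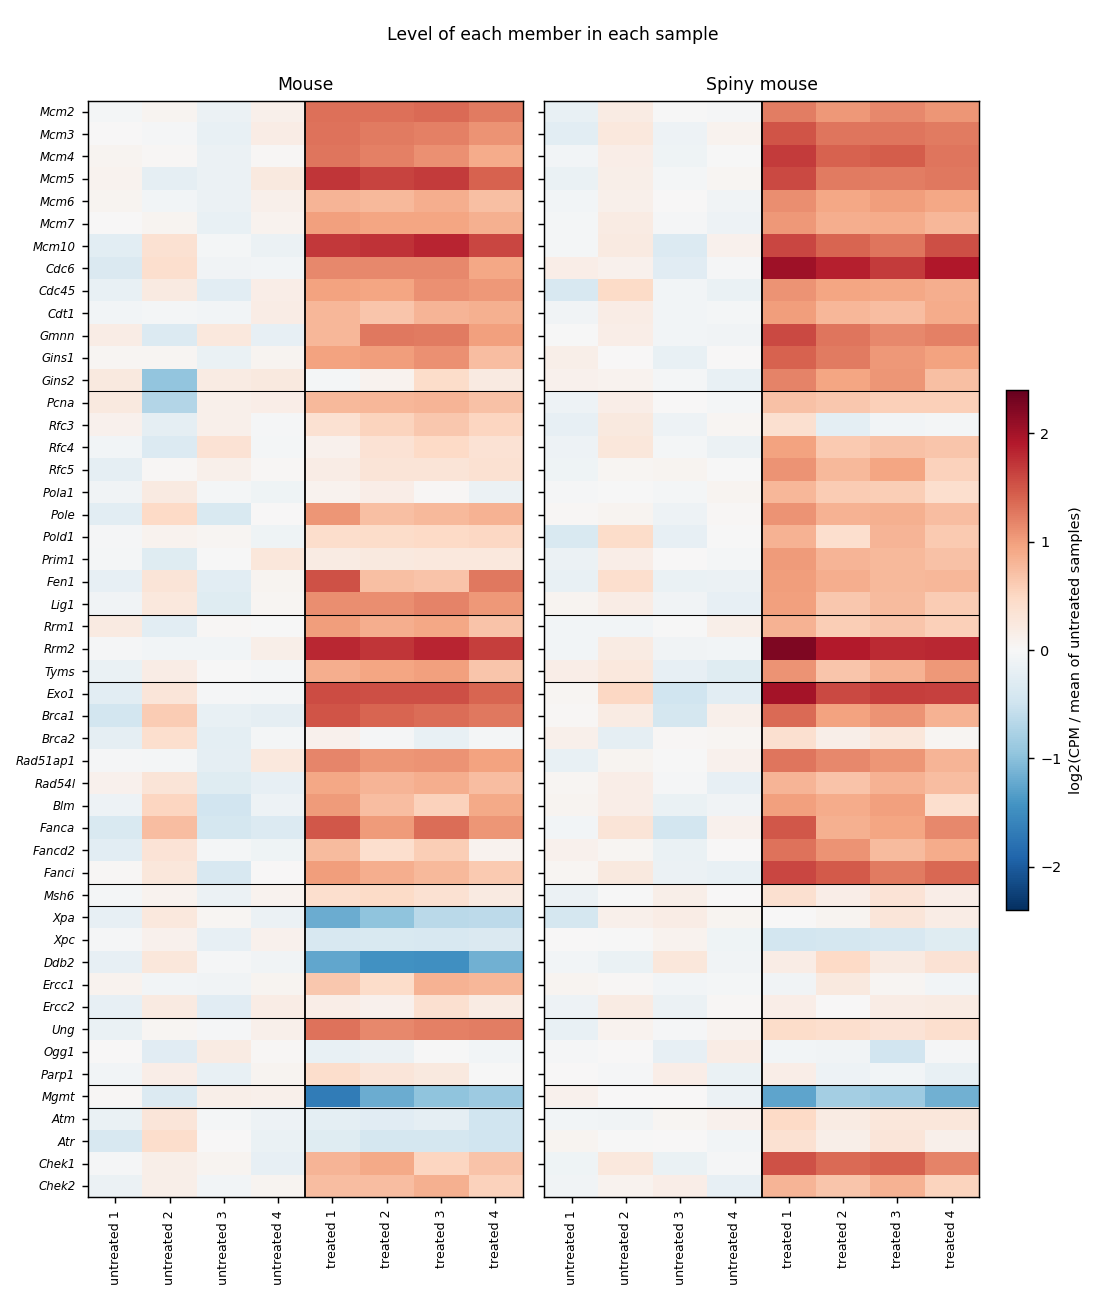
Log2 of each sample's CPM over the mean of the 4 untreated samples of its species, for the 49 members in role order (rows, black lines between roles) and the 8 samples of each species (columns). Treated columns are red for most replication and recombination rows. Exceptions with treated means near the untreated mean are Gins2, Pola1 and Brca2 in mouse and Rfc3 in spiny mouse. Treated spiny mouse replicate 1 is the highest of its group for 39 of 49 members, and untreated mouse replicate 2 departs from its group for Gins2, Pcna, Fanca and Brca1.

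A wider list of 138 other genes of the same processes, chosen by role, was read beside the members. Among them 56 were higher and 23 lower of 138 tested in mouse, and 64 and 14 of 137 in spiny mouse. In either direction this is 57.2% and 56.9%, near the 61.2% and 55.1% of all genes, while the higher calls alone were 40.6% and 46.7% beside 25.9% and 28.2%. Other fork genes rose in 15 of 21 cases in mouse and 19 of 21 in spiny mouse, with none lower. Other licensing genes had 8 of 13 higher and 3 lower in mouse and 9 higher and none lower in spiny mouse. Of the other base excision genes 6 of 18 rose and 1 fell in mouse while 2 of 17 rose and 4 fell in spiny mouse. Translesion synthesis, which copies past lesions, had 2 of 7 higher and 5 lower in mouse and 3 higher and 2 lower in spiny mouse. End joining had 3 of 10 higher and 2 lower, and 4 higher and 1 lower.

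Of these genes 13 were called, all higher, in both species with a log2 fold change of at least 1 in either. Dbf4, the activating subunit of the origin-firing kinase, rose by 1.49 in mouse and 1.48 in spiny mouse, and the origin-firing factor Ticrr by 1.44 and 1.43. Bard1, the partner of Brca1, rose by 0.90 and 1.33, and the nuclease subunit Eme1 by 1.74 and 1.33. Clspn, through which Atr activates Chek1, rose by 1.42 and 1.77. Orc1 (0.77 and 1.65), Pola2 (0.48 and 1.23), Pole2 (0.61 and 1.29), Dna2 (0.62 and 1.16) and Tk1 (0.80 and 1.38) had larger values in spiny mouse, a difference that passed for Orc1 (0.88, edgeR adjusted p 0.0318), Pola2 (0.75, adjusted p 0.00753) and Pole2 (0.67, adjusted p 0.00974). Rad23b, the partner of Xpc, rose more in mouse (1.14 and 0.63, difference -0.51, adjusted p 0.0172).

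The 5 largest species differences among these other genes all favoured spiny mouse. Fancm, the Fanconi translocase, was at 15.2 ± 2.44 and 16.2 ± 2.03 CPM in mouse. Spiny mouse skin went from 5.19 ± 0.26 to 20.8 ± 3.47 CPM (difference 1.91, SE 0.19, edgeR adjusted p 2.45e-06). Ube2t, the enzyme that attaches ubiquitin to the pair of Fancd2 and Fanci, went from 4.65 ± 1.61 to 3.35 ± 0.61 CPM in mouse, which was not called. Spiny mouse skin had 2.08 ± 0.63 CPM of Ube2t untreated and 5.24 ± 0.54 CPM treated (difference 1.79, adjusted p 0.000537). Mad2l2, which serves translesion synthesis and break repair, fell by 0.79 in mouse and rose by 0.60 in spiny mouse (difference 1.39, adjusted p 9.15e-05). Rbbp8, the resection factor CtIP, fell in mouse (61.3 ± 2.84 to 38.0 ± 2.23 CPM) and rose in spiny mouse (32.7 ± 1.63 to 52.9 ± 3.88 CPM; difference 1.38, adjusted p 1.87e-07). Gins4, a GINS subunit like Gins1 and Gins2, was at 17.8 ± 3.22 and 20.5 ± 0.99 CPM in mouse. Spiny mouse skin went from 3.22 ± 0.35 to 8.75 ± 0.72 CPM (difference 1.24, adjusted p 6.88e-05).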

How the data were processed

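Skin RNA of 16 samples was analysed as the raw read-pair counts per gene that the authors deposited in 2 tables. Per the file headers, these counts were made with featureCounts 2.0.3 on read pairs with both ends mapped, without a strand option and without pairs that map to several places or genes, on GRCm39 with Ensembl 108 for mouse and on AcoCah2 for spiny mouse. Trim Galore and HISAT2 are named in the submitters' processing notes without a version. Reads over exons that 2 genes share were thus lost to both, and 23 members in mouse and 14 in spiny mouse have such bases. Mouse symbols came from GENCODE M39 (56236 of 56980 identifiers named). Untreated columns carry a code that the labels do not explain and were matched by species letter and replicate number. The column of mouse untreated replicate 2, the library that most often stood apart, alone has a further suffix. All 16 columns were used. No pair of samples within a group agreed within sampling noise (chi-square per degree of freedom 11.3 to 165.8).

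Within each species genes were filtered (filterByExpr), TMM-scaled and compared, treated over untreated, by edgeR 4.0.16 (R 4.3.3; glmQLFit, glmQLFTest) with Benjamini-Hochberg adjustment over all genes tested and a threshold of 0.05. Species differences are the species by treatment interaction over 13656 shared symbols. Levels are CPM with SD over 4 samples. Error covers the samples only, and counts carry no molecular identifiers. On simulated data with 19513, 14756 and 13590 genes, log2 changes of 1 were called in 48%, 76.8% and 47% of cases for mouse, spiny mouse and the difference. Unchanged genes were called in 0.0259%, 0.0687% and 0.0523%. Most genes there were set unchanged (19314, 14558 and 13391), while 61.2%, 55.1% and 46.1% of genes were called in skin. Recovery with so large a share of changed genes was not tested. The members, the other pathway genes and the markers were chosen with earlier results of these data known. All members could be named; per-sample values are given for up to 3 called members with the largest change per role and species and for members with opposite directions and a called difference, and also for Gins2, chosen after its values were seen. Other pathway genes are named where called in both species with a log2 fold change of at least 1 in either, or among the 5 largest called differences, and 2 genes that meet this rule are not reported here. Alternatives were DESeq2 1.42.0, its size factors in edgeR, upper-quartile factors, library size alone, no low-count filter, a mean count of at least 10, a replicate block, each sample left out, and mouse untreated replicates 1 and 2 left out together. Promoter motifs were also searched from 200 bases before the start.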

Additional observations from a re-analysis of the deposited data

Results flagged for a closer look

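Among the 196 groups of 4 samples (49 members in 4 groups), 15 held a sample whose distance to its nearest neighbour took up most of the range of the group. Chance alone gives about 1 in 20. In untreated mouse skin replicate 2 stood apart for Gins2 (3.82 CPM, the others 8.43 to 8.66), Pcna (24.3 CPM, the others 43.3 to 46.8), Pola1 (27.5 CPM, the others 21.9 to 22.8) and Fanca (8.46 CPM, the others 3.77 to 4.05). It is also the sample with most hair follicle transcript in its group. Replicate 3 stood apart for Gins1 (3.22 CPM) and replicate 4 for Cdt1 (14.7 CPM). In treated mouse skin replicate 4 was low for Cdc6 (8.47 CPM, the others 9.82 to 9.92) and Exo1 (11.7 CPM, the others 12.97 to 13.1). In untreated spiny mouse skin replicate 2 was high for Cdt1 (11.9 CPM), Fen1 (29.4 CPM, the others 19.7 to 20.3) and Rrm2 (39.8 CPM, the others 32.8 to 33.2). In treated spiny mouse skin replicate 1 was high for Mcm3 (79.3 CPM, the others 65.6 to 67.7), Mcm5 (86.5 CPM, the others 67.7 to 69.3) and Exo1 (16.2 CPM, the others 12.3 to 12.9), and replicate 3 was low for Ogg1 (6.19 CPM).

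The response differed between the species for 13 members by the interaction term of edgeR (spiny mouse minus mouse, log2). The signed log2 fold change was higher in spiny mouse for Ddb2 (1.63), Xpa (0.98), Gins2 (0.80), Cdc6 (0.78), Chek1 (0.65), Atr (0.63), Fanci (0.60), Atm (0.60), Prim1 (0.59), Pola1 (0.57) and Rfc5 (0.56), and lower for Ercc1 (-0.65) and Ung (-0.83). Ddb2 and Xpa fell in mouse (-1.32 and -0.84) and were not called in spiny mouse (0.31 and 0.14). Atm and Atr had opposite signs in the 2 species, called in spiny mouse only.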

How the results depend on the processing

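The number of members called stayed within 1.5 times the reported 38, 41 and 13 under all alternatives run. It ranged from 37 to 42 in mouse, 39 to 42 in spiny mouse and 11 to 18 for the species difference when each sample was left out. The numbers of all genes called then ranged from 11062 to 13944, 7258 to 8132 and 5746 to 7711. Of 2695 refits of single members 55 lost a call, 73 gained 1 and 0 reversed a called direction, while 122 changed sign with no call in either fit. In mouse 32 of 38 calls, in spiny mouse 39 of 41 and for the difference 9 of 13 were kept throughout.

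Replicate numbers recur in the groups, but the deviations of same-numbered samples correlated by 0.00943 on average in mouse and by -0.355 in spiny mouse, so the numbers were not taken as pairs. With the replicate number as a block 37, 40 and 12 members and 11246, 7418 and 5723 of all genes were called.

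Scaling moved the median log2 fold change of all genes in mouse by -0.205 (upper-quartile factors) and -0.238 (library size). It moved that of the species difference by -0.104 to 0.222. Without a low-count filter the mouse median moved by -0.312, but over 38169 genes in place of 19740. Over the 49 members that fit raised the mouse median from 0.794 to 0.938. Upper-quartile factors and library size lowered it to 0.59 and 0.556. Higher genes were 42.4% of all mouse calls as reported, 48.4% under DESeq2 size factors, 30.5% under upper-quartile factors and 28.6% under library size. Among members these shares were 89.5%, 90.5%, 83.3% and 82.9%. With 200 bases before the start, the motif shares over all genes were 2.29% (E2F type), 17.7% (CHR type), 36.6% (CCAAT) and 36.8% (GC box).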
